A study of Mus musculus with 6 samples.

Results

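The nuclear-encoded subunits of the mitochondrial respiratory chain and its ATP synthase were compared between male and female bone marrow cells. Members were the protein-coding rows of the count table whose symbols name a subunit of complex I (Ndufa, Ndufb, Ndufc, Ndufs and Ndufv genes), complex II (Sdha to Sdhd), complex III (Uqcr genes), complex IV (Cox4 to Cox8 genes) or complex V (Atp5 genes). The rule found 84 members among 21606 genes, of which 36 belonged to complex I, 4 to complex II, 8 to complex III, 19 to complex IV and 17 to complex V. Ndufa4 and Ndufa4l2 were placed with complex IV, where the NDUFA4 protein resides. A further 7 rows with matching symbols were classed as pseudogenes and were not members. Of the 84 members, 79 had enough counts to be tested, among 8460 tested genes.

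The cells were ALDHbr cells, the marrow fraction with high aldehyde dehydrogenase activity, which is rich in progenitors. They came from male and female C57BL/6 mice of WT genotype, with 3 libraries of each sex, and no treatment is given in the labels. Ages, and whether the replicates came from separate animals, are not stated in the labels. Hence p-values measure the spread between these libraries, which may be technical. RNA was read as 3′-end tags by BRB-seq, which barcodes the RNA of each sample during reverse transcription and amplifies all samples together.

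The respiratory chain passes electrons from NADH (through complex I) and succinate (through complex II) to ubiquinone, then through complex III and cytochrome c to oxygen at complex IV. Complexes I, III and IV pump protons across the inner mitochondrial membrane, and complex V, the ATP synthase, uses the gradient to make ATP. Some subunits of complexes I, III, IV and V are encoded in mitochondrial DNA, and all others, including the whole of complex II, are encoded in the nucleus. Hematopoietic stem cells are known for low reliance on respiration, which increases as progenitors become committed.

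Libraries held 837756, 679724 and 880074 counts in male replicates 1 to 3, against 1199551, 1475224 and 1285309 in female replicates 1 to 3, so the male mean was 0.605 times the female mean. All 6 libraries matched their labelled sex by Xist and Ddx3y. The myeloid progenitor marker Mpo, encoding myeloperoxidase, had 6124 to 6656 CPM in males and 7423 to 7870.3 CPM in females, where CPM is counts per 1e+06 counts of a library total scaled by the trimmed mean of M-values (TMM). Of the 6 myeloid progenitor markers 0 were called, with 4 fold changes below 0 (Mpo, Elane, Kit and Prtn3, from -0.27 to -0.06 on the log2 scale) and 2 above (Ctsg at 0.18 and Cd34 at 0.12), and they summed to 13144 to 14152 CPM in males and 14732 to 15415 CPM in females. Markers of mature neutrophils (S100a8, S100a9 and Ltf), striated muscle and brown fat had at most 14 counts in any library. Among the 6 erythroid markers, the carbonic anhydrase genes Car1 and Car2 were higher in males by 1.67 and 1.52 on the log2 scale (adjusted p = 2.89e-07 and 3.90e-05), while Hbb-bs, Hba-a1 and Klf1 had at most 16 counts in any library. Summed, the 6 erythroid markers had 214 to 351 CPM in males and 92.6 to 107 CPM in females, and the 3 platelet markers, of which Pf4 was called higher, had 37.3 to 111 CPM in males and 21.7 to 30.6 CPM in females. The 5 B and plasma cell markers summed to 6039 to 7091 CPM in males and 7809 to 9059 CPM in females; all 4 tested had a fold change below 0, and Ms4a1 was called lower in males, with a log2 fold change of -2.36 (adjusted p = 0.0131). Tested members summed to between 67 counts (Cox6a2) and 7891 counts (Atp5b) over the 6 libraries, with a median of 1374.

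Most subunit RNAs had somewhat higher levels in males, but none passed the test. By the quasi-likelihood test of edgeR, 0 of 79 members were called higher and 0 lower at an adjusted p of 0.05, where 0.426% of all tested genes were called higher and 0.154% lower. The smallest adjusted p of any member was 0.156, for Atp5j2. At an unadjusted p under 0.05, 27 of 79 members (34.2%) were higher and 0 lower, where 6.83% of all tested genes were higher and 4.5% lower. DESeq2 called 0 members, where 0.402% of all tested genes were higher and 0.0827% lower, and had 20 members at an unadjusted p under 0.05, all higher in males, where 4.22% of all tested genes were higher and 1.68% lower. By limma-voom 0 members were called, where 0.39% of all tested genes were higher and 0.0946% lower, and 23 had an unadjusted p under 0.05, all higher in males, where 6.8% were higher and 4.23% lower. The fold change was above 0 for 69 of 79 members (87.3%), where it was for 49.3% of all tested genes. The median log2 fold change, male over female, was 0.22 over the members and -0.0030 over all tested genes. In bulk RNA, fewer cells of a type and less RNA per cell cannot be told apart.

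**Figure D1:**
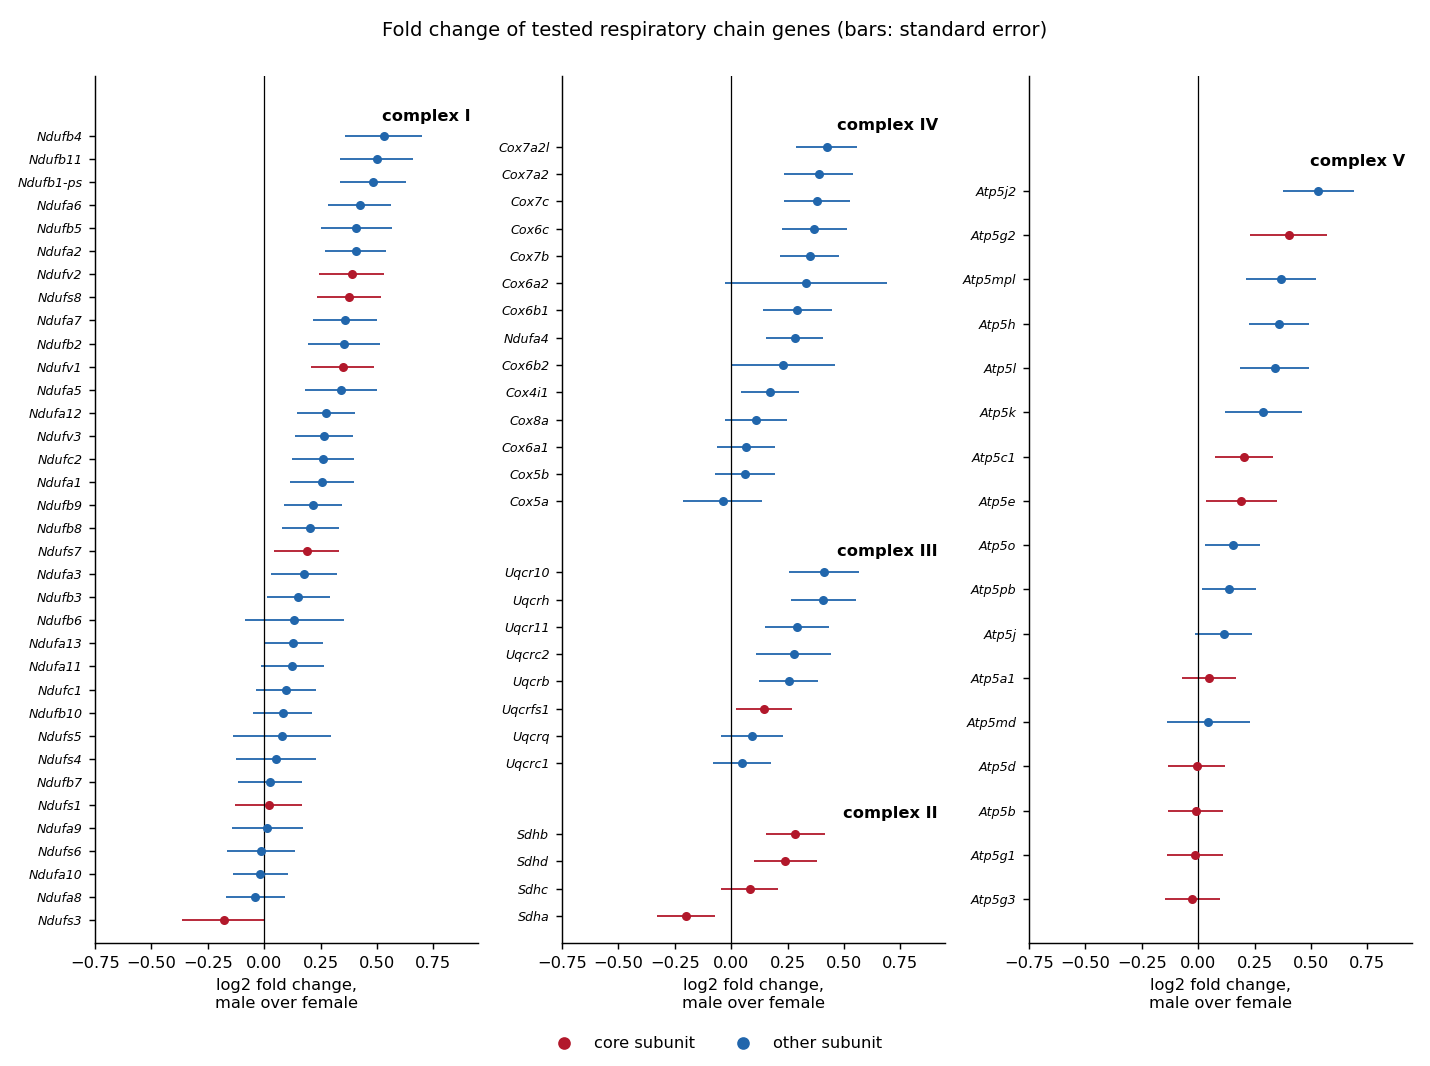
Log2 fold change (male over female, x axis) of the tested subunits by complex, with 1 point and its standard error per gene and 1 gene not shown. Most points lie to the right of 0, the lowest being -0.20 for Sdha and the highest 0.53 for Atp5j2, and none passed the adjusted threshold.

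The male libraries were not alike. Male replicate 1 had the RNA of 15 of 79 members above every female library and of 31 below every female library. Male replicate 2 had 71 members above and 2 below, and male replicate 3 had 54 above and 14 below. Among all tested genes, 27.9%, 34.1% and 30.5% lay above every female library in male replicates 1, 2 and 3, and 27.5%, 35.9% and 31.4% below every female library. Relative to the female mean of each gene, the median member stood at -0.04, 0.43 and 0.21 on the log2 scale in male replicates 1 to 3, against 0.01, 0.04 and -0.03 in female replicates 1 to 3. Thus male replicate 1 sat close to the females and the other males above them. Over all tested genes, male replicate 2 had the lowest mean correlation of log2 CPM, 0.952 with the other males and 0.945 with the females. These were 0.956 and 0.965 for male replicate 1 and 0.960 and 0.961 for male replicate 3. Both male replicate 2 and male replicate 3 exceeded every female library for 52 of 79 members (65.8%), which was so for 18% of all tested genes. All 3 males exceeded all 3 females for only 6 members (7.59%), close to the 7.57% of all tested genes, and 0 members had all males below all females, where 8.03% of all tested genes did. Ndufa2 and Cox7b were among the 6 members with all males above all females.

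Without male replicate 1, edgeR called 25 of 79 members (31.6%) higher in males and 0 lower at an adjusted p of 0.05, where 3.75% of 8989 tested genes were higher and 0.868% lower. The 25 comprised 10 of 36 in complex I, 0 of 4 in complex II, 3 of 8 in complex III, 7 of 14 in complex IV and 5 of 17 in complex V, and 22 of them were among the 27 members with an unadjusted p under 0.05 in all libraries. The median log2 fold change of the members was then 0.30. Without male replicate 2, 0 members were called, where 0.366% of all tested genes were higher and 0.111% lower, and the median was 0.09, with 6 members at an unadjusted p under 0.05. The median member of male replicate 1 was not above the females. Summed erythroid markers in that library had 282 CPM, above the highest female sum of 107 CPM, as in the other 2 males. Platelet markers summed to 37.3 CPM in male replicate 1, 111 and 100 CPM in male replicates 2 and 3, and at most 30.6 CPM in females. Those of lung epithelium (Sftpc, Scgb1a1 and Sftpa1) summed to 182, 373 and 190 CPM in male replicates 1 to 3 and 119 to 176 CPM in females. The part of these and the other marker lists in the result was not tested.

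**Figure D2:**
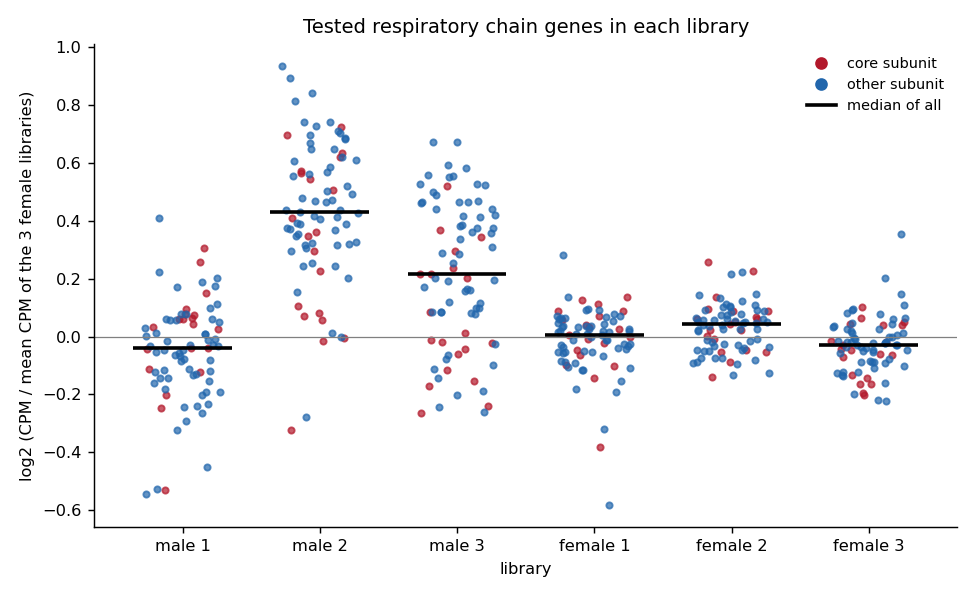
Level of each tested subunit relative to its female mean (log2, y axis) in each of the 6 libraries (x axis), with core and other subunits in separate colours and the median of the 79 as a line. Male replicates 2 and 3 have medians of 0.43 and 0.21, while male replicate 1, at -0.04, lies just below the female medians of -0.03 to 0.04.

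Summed over all members, the level was 19354, 26452 and 22944 CPM in males and 19839.9, 20399 and 19492 CPM in females. Female libraries lay close together, while male replicate 1 lay below all of them and the other males above. The means were 22916 ± 3549 CPM in males and 19910.2 ± 458 CPM in females (SD, n = 3 each), a ratio of 1.15. As a share of all counts the members held 1.98%, 2.34% and 2.16% in males, against 2.05%, 2.04% and 1.97% in females. Complexes I, III and IV had nearly the same ratio of male over female mean, 1.19 each, while complex V had 1.10 and complex II 1.07. In each of the 5 complexes the male and female libraries overlapped.

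**Figure D3:**
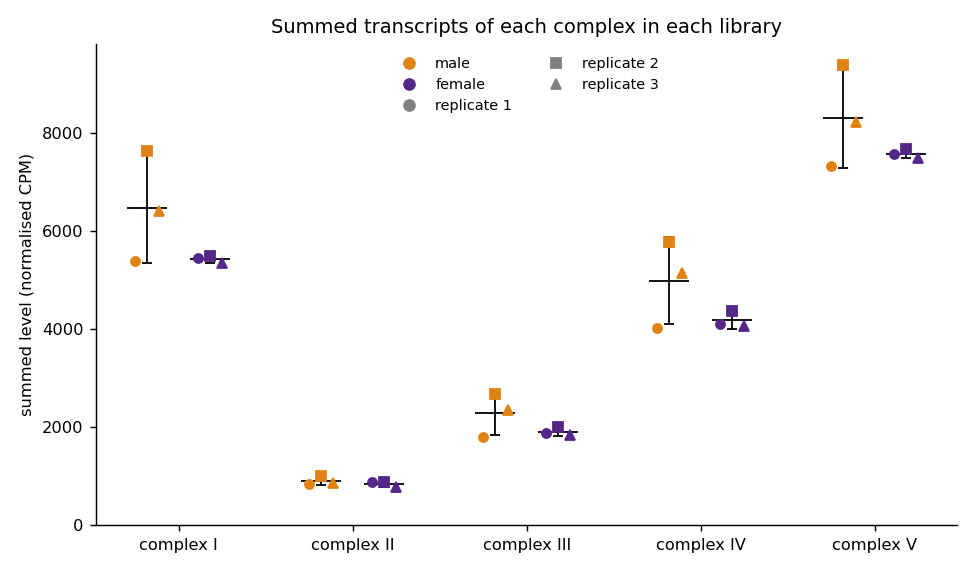
Summed level of the members of each complex (CPM, y axis) in the 3 male and 3 female libraries, with 1 point per library and black marks for the mean ± SD. Male libraries spread more widely than female libraries in each complex, as in complex V with 7317 to 9378 CPM in males and 7485 to 7670.3 CPM in females.

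The promoters of members at both ends of the fold changes are shown to compare the motifs known for respiratory chain genes. Of 84 members 67 matched a RefSeq promoter window by symbol, in 72 windows from 250 bases before to 50 bases after the start (GRCm38.p6). Searched on both strands were the NRF1 motif (GCGC and TGCGC with any 1 base, N, between them), the ETS motif CCGGAAG (bound by GABPA, among others), the YY1 motif AAGATGGC and CCAAT, none of which contains another. The NRF1 motif was in 25.0% of member windows, against 11.7% of windows of tested genes and 4.603% of all windows. The YY1 motif was in 13.9%, against 5.20% and 2.75%. The ETS motif was in 23.6%, against 20.5% and 8.86%, and CCAAT in 43.1%, against 37.9% and 37.4%. Thus the first 2 were more frequent in member windows than in those of tested genes, while ETS and CCAAT had shares closer to theirs. No test of these shares was made.

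Below are the windows of Atp5j2 (chr5:145191492-145191791, minus strand) and Ndufb4 (chr16:37654319-37654618, minus strand), with the highest log2 fold changes, and of Ndufs3 (chr2:90904672-90904971, minus strand) and Sdha (chr13:74350191-74350490, minus strand), with the lowest. They were picked by those values. Each is printed 5′ to 3′ on the strand of the gene, and capitals mark matches of the NRF1, ETS and YY1 motifs on either strand.
Atp5j2: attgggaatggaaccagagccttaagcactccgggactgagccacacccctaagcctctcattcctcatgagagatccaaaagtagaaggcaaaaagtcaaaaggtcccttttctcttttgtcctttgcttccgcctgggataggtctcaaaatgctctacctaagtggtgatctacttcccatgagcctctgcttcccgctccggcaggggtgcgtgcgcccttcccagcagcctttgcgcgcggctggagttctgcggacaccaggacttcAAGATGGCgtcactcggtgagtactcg
Ndufb4: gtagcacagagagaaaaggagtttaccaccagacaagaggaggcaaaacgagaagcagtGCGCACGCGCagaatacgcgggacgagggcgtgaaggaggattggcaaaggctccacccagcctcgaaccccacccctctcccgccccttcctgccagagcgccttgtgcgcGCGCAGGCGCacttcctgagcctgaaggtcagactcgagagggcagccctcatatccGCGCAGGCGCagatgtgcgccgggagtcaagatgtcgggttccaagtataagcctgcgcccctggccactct
Ndufs3: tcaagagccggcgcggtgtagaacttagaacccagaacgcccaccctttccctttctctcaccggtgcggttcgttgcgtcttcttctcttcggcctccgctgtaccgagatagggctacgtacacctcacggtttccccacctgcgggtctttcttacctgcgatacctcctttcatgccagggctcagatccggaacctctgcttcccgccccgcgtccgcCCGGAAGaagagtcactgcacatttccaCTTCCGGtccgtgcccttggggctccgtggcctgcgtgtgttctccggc
Sdha: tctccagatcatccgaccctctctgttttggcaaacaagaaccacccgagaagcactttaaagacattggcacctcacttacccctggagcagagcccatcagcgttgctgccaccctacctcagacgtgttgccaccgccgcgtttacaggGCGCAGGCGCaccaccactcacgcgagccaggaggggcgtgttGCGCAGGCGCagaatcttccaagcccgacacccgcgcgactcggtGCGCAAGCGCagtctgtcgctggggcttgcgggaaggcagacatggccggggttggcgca
Atp5j2 has 1 YY1 match after its start and no NRF1 match. Ndufb4 and Sdha, from opposite ends of the fold changes, both have 3 NRF1 matches. Ndufs3 has 2 ETS matches, 1 on each strand. A match describes these letters only.

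Complex I takes electrons from NADH. Its 36 members were all tested, and 32 had a fold change above 0, 13 of them with an unadjusted p under 0.05. The median log2 fold change was 0.21, with a range of -0.18 to 0.53. Among the 7 core subunits, the conserved subunits of electron transfer and their scaffold, the median was 0.22 and 3 had an unadjusted p under 0.05. Ndufv2, which carries an iron-sulfur cluster beside the flavin subunit, had 261, 412 and 384 CPM in males and 275, 266 and 262 CPM in females. Its log2 fold change was 0.39 ± 0.14 (SE; adjusted p = 0.273 by edgeR). Male replicate 1 lay below the female libraries and the other males above. Ndufs8 and Ndufv1, a cluster-bearing subunit and the flavin-bearing NADH-binding subunit, had log2 fold changes of 0.38 and 0.35. At the other end was Ndufs3, a core subunit of the peripheral arm, with 37.3, 53.2 and 53.0 CPM in males and 54.8, 48.8 and 57.7 CPM in females. Its log2 fold change of -0.18 ± 0.18 was the lowest of the complex, and its groups overlapped. Ndufs1, the largest core subunit, had a log2 fold change of 0.02 on 551 counts; its exons overlap those of Eef1b2 on the other strand, which had 11108 counts.

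The accessory subunits of complex I, which surround the core and are needed for its assembly and stability, numbered 29, and 26 had a fold change above 0. The 3 with the highest fold changes in the complex were accessory subunits of the membrane arm. Ndufb4 had 107, 208 and 178 CPM in males and 123, 117 and 96.2 CPM in females, a log2 fold change of 0.53 ± 0.17 (adjusted p = 0.218 by edgeR). Its promoter window held 3 NRF1 matches. Ndufb11, which is X-linked, had 257, 497 and 359 CPM in males and 271, 254 and 255 CPM in females, with a log2 fold change of 0.50 ± 0.16. Ndufb1-ps, which the table gives as protein-coding despite its pseudogene symbol, had 171, 289 and 237 CPM in males and 172, 167 and 155 CPM in females, a log2 fold change of 0.48 ± 0.15. In these 3 genes male replicate 1 lay within the female range and the other males well above it. Ndufa6, an accessory subunit of the LYR family, had 241, 348 and 335 CPM in males and 201, 240.5 and 243 CPM in females, a log2 fold change of 0.42. Ndufa2, Ndufa5, Ndufa7, Ndufa12, Ndufb2 and Ndufb5 also had an unadjusted p under 0.05, with log2 fold changes from 0.27 (Ndufa12) to 0.41 (Ndufb5). Ndufa2 had 147, 209.5 and 167 CPM in males and 134, 126 and 132 CPM in females, so its groups did not overlap. The highest level in the complex was that of Ndufb11, at 316 CPM over the 6 libraries, followed by Ndufv2 at 310.3 CPM, and these did not differ beyond their spread. Per kilobase of mRNA, Ndufa6 had 454 CPM per kilobase. Counts of 3′-end tags do not increase with mRNA length, so values per kilobase, here and below, are not measures of level.

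Complex II, succinate dehydrogenase, is also an enzyme of the citric acid cycle. Of its 4 members, 3 had a fold change above 0, with a median of 0.16 on the log2 scale, and 1 had an unadjusted p under 0.05. Sdha, the flavoprotein that oxidises succinate, had 259, 213 and 222 CPM in males and 283, 283 and 232 CPM in females. Its log2 fold change of -0.20 ± 0.13 was the lowest of all 79 tested members (adjusted p = 0.587 by edgeR), and its groups overlapped. Its promoter window held as many NRF1 matches as that of Ndufb4. Sdhb, the iron-sulfur subunit that passes the electrons on, had 186, 258 and 208 CPM in males and 176, 194 and 160.1 CPM in females, a log2 fold change of 0.29 ± 0.13 (adjusted p = 0.411). The 2 membrane anchors Sdhc and Sdhd had log2 fold changes of 0.08 and 0.24. The ratio of Sdhb to Sdha, which needs no scaling between libraries, was 0.721, 1.21 and 0.940 in males and 0.621, 0.687 and 0.689 in females, so that each male library lay above each female library. This ratio was picked after the values were seen. The 4 subunits had similar levels, from 197 CPM for Sdhb to 249 CPM for Sdha. Divided by mRNA length, Sdhb had 172.6 CPM per kilobase and Sdhc 69.7, which with 3′-end tags is not a difference in level.

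Complex III carries electrons from ubiquinol to cytochrome c. All 8 members had a fold change above 0, with a median of 0.27 on the log2 scale, and 2 had an unadjusted p under 0.05. Uqcrh, the hinge subunit beside cytochrome c1, had 410.0, 674 and 609 CPM in males and 429, 431 and 410.2 CPM in females, a log2 fold change of 0.41 ± 0.15 (adjusted p = 0.254 by edgeR). Uqcr10, a small membrane subunit, had 154, 279 and 248 CPM in males and 174, 173 and 159 CPM in females, with the same log2 fold change of 0.41. In both genes male replicate 1 was the lowest library of all and the other males the highest. Uqcrc1, one of the large matrix-facing proteins, stood at the low end with 225, 303 and 233 CPM in males and 234, 255 and 241 CPM in females, a log2 fold change of 0.05. Uqcrfs1, the Rieske iron-sulfur protein, had a log2 fold change of 0.15. Uqcrh had the highest level of the complex, 494 CPM, and Uqcrc2 the lowest, 76.8 CPM.

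Complex IV, cytochrome c oxidase, reduces oxygen. Its catalytic subunits are mitochondrially encoded, and its nuclear members surround them. Of 14 tested members, 13 had a fold change above 0, with a median of 0.29 on the log2 scale, and 6 had an unadjusted p under 0.05. Cox7a2l, which helps join complexes III and IV into supercomplexes, had 189.8, 263 and 265 CPM in males and 176, 194 and 162 CPM in females. Its log2 fold change of 0.42 ± 0.14 was the highest of the complex (adjusted p = 0.210 by edgeR), and only male replicate 1 fell within the female range. Cox7b, a small X-linked membrane subunit, had 485, 654 and 639.8 CPM in males and 471, 483 and 440.2 CPM in females, a log2 fold change of 0.35 ± 0.13 (adjusted p = 0.275), and its groups did not overlap. Cox7a2, Cox7c, Cox6c and Ndufa4, further subunits with unadjusted p under 0.05, had log2 fold changes of 0.39, 0.38, 0.37 and 0.28. Cox4i1, the regulatory subunit that binds ATP, had the highest level, with 735, 999 and 849 CPM in males and 743, 811 and 733 CPM in females, and a log2 fold change of 0.17. Cox5a, which lies on the matrix side, had 52.4, 84.8 and 75.9 CPM in males and 62.8, 69.8 and 82.4 CPM in females, and was the one tested member of the complex with a log2 fold change under 0, at -0.04. Per kilobase of their shortest transcripts, Ndufa4 and Cox4i1 had 1240.0 and 1090 CPM per kilobase.

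Several complex IV subunits have paralogues that replace each other by tissue, and the marrow cells expressed mostly the general forms. Cox4i2, a form of lung and hypoxic cells, held 0.511% ± 0.0472 of COX4 counts in males and 0.372% ± 0.233 in females (SD, n = 3 each). The lung markers Sftpc, Scgb1a1 and Sftpa1 had 68 to 133, 48 to 92 and 14 to 27 counts per library. Lung samples shared the pool, and the part of lung RNA in the Cox4i2 counts was not tested. Cox6a2, the heart and muscle form, held 2.90% ± 0.249 of COX6A counts in males and 2.38% ± 0.753 in females, on 28 counts in males and 39 in females, and the shares overlapped. The muscle markers Ckm, Myh6, Tnnt2, Tnni3 and Des had at most 3 counts in any library. Cox6b2, known as the testis form, held 6.30% ± 2.02 of COX6B counts in males and 6.39% ± 0.728 in females, so it did not differ beyond the spread. Cox7a1, the muscle and brown fat form, held 0.452% ± 0.162 in males on 6 counts and 0.117% ± 0.104 in females on 2 counts. Cox7a2 and Cox7a2l shared the rest, with 57.4% ± 2.76 and 42.2% ± 2.82 in males and 58.4% ± 4.15 and 41.4% ± 4.06 in females. Cox7a2l is the supercomplex gene described above, so its share is not read as a replacement by tissue. The 5 members below the count minimum were Cox4i2 with 10 counts in males and 11 in females, Cox7a1 as above, Ndufa4l2 with 2 and 1, Cox5b-ps with 1 and 2, and Cox7b2 with 1 and 0. The floor of 3 counts allows Cox7b2 a share of up to 0.160% of COX7B counts in females. Shares and floors carry counting error, and tags that carry PCR copies are not independent.

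**Figure D4:**
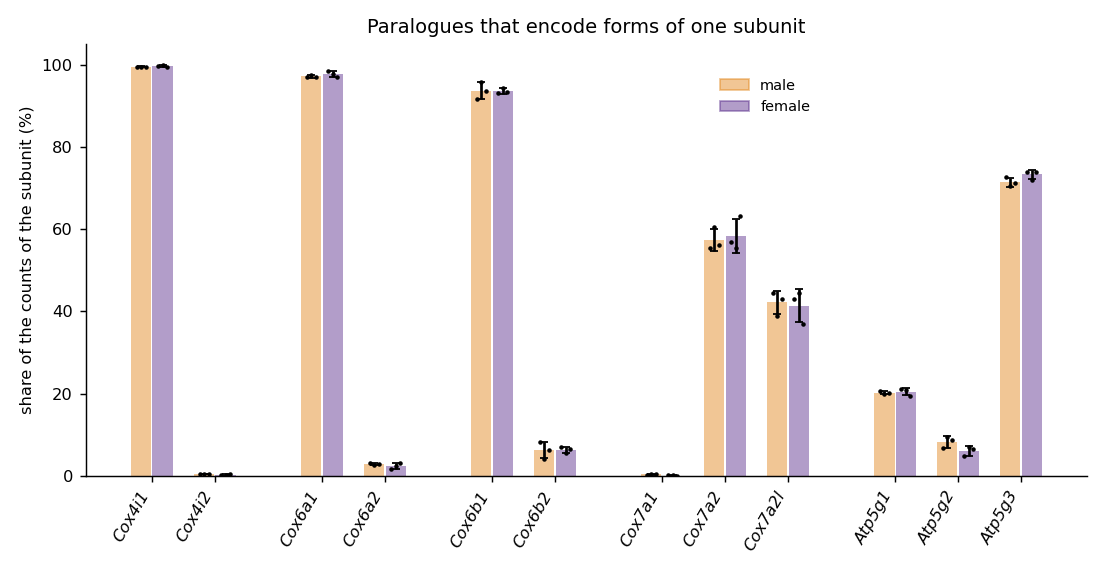
Share of counts (%, y axis) held by each paralogue of subunits COX4, COX6A, COX6B, COX7A and subunit c of complex V in the 3 male and 3 female libraries, with bars for the mean, SD bars and 1 point per library. The tissue-restricted forms stay low in both sexes, with Cox6b2 at 4.25% to 8.28% in males and 5.58% to 7.002% in females.

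Complex V makes ATP with a rotary F1 head in the matrix, driven by a ring of c subunits in the membrane. The 5 subunits of the F1 head had a median log2 fold change of 0.05 and the 3 genes for subunit c one of -0.01, while the 4 of the peripheral stalk, which holds the head still, had 0.14 and the 5 membrane accessory subunits 0.34. Atp5b, the catalytic beta subunit and the most abundant member, had 1154, 1352 and 1239 CPM in males and 1217, 1310.0 and 1242 CPM in females, a log2 fold change of -0.01 ± 0.12 (adjusted p = 0.988 by edgeR). Atp5a1, the alpha subunit, had 1157, 1161 and 1088 CPM in males and 1101, 1064 and 1128 CPM in females, a log2 fold change of 0.05. The groups overlapped in both genes. Atp5j2, subunit f of the membrane part, had 309.8, 565 and 504 CPM in males and 321, 312 and 316 CPM in females, a log2 fold change of 0.53 ± 0.16 (adjusted p = 0.156 by edgeR). That was the highest fold change of all members. Male replicates 2 and 3 lay far above the narrow female range and male replicate 1 just below it. Without male replicate 1, the log2 fold change of Atp5j2 was 0.76 ± 0.11 (adjusted p = 8.38e-05), and over all alternatives tried it lay between 0.36 and 0.76.

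Further complex V members with an unadjusted p under 0.05 were Atp5h (subunit d of the stalk), Atp5l (subunit g), Atp5mpl (a small proteolipid) and Atp5g2. Atp5h had 417, 607 and 569.9 CPM in males and 412, 421 and 406 CPM in females, a log2 fold change of 0.36. Atp5l and Atp5mpl had log2 fold changes of 0.34 and 0.37. The ratio of membrane accessory to F1 head subunits was 0.247, 0.364 and 0.367 in males and 0.260, 0.270 and 0.255 in females, so male replicate 1 lay below the females and the other males above. The 3 genes Atp5g1, Atp5g2 and Atp5g3 encode the same mature subunit c behind different import sequences. Atp5g3 held 71.5% ± 1.09 of their counts in males and 73.3% ± 1.06 in females, Atp5g1 20.2% ± 0.337 and 20.5% ± 0.928, and Atp5g2 8.31% ± 1.43 and 6.19% ± 1.21. Only Atp5g2, with 85.0, 126 and 98.8 CPM in males and 58.8, 91.4 and 79.3 CPM in females, had a log2 fold change away from 0, at 0.40 ± 0.17 (adjusted p = 0.355 by edgeR). Its groups overlapped. Per kilobase, which does not measure level in 3′-end tags, Atp5g3 was the highest member, at 1255 CPM per kilobase.

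The 3 X-linked members, Ndufa1, Ndufb11 and Cox7b, had log2 fold changes of 0.26, 0.50 and 0.35, so all 3 had a higher mean in males than in females. Ndufa1, an accessory subunit needed for assembly of complex I, had 119, 156 and 176 CPM in males and 113, 129 and 134 CPM in females, and its groups overlapped. Over all 249 tested X-linked genes the median log2 fold change was -3.24e-06, and over the 76 tested autosomal members it was 0.20.

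Across complexes, the subunits that carry out electron transfer or catalysis and those that surround them were set apart. The 20 core subunits (the complex I core, all of complex II, Uqcrfs1, and the F1 head and c ring of complex V) had a median log2 fold change of 0.17, with 14 above 0 and 5 at an unadjusted p under 0.05. The 59 tested other subunits had 0.26, with 55 above 0 and 22 at that level. Among all tested genes, 49.3% were above 0 and 6.83% were higher at that level. This contrast was not seen within complex I, with medians of 0.22 in core and 0.21 in other subunits. Within complex V they were 0.02 and 0.29, and within complex III 0.15 (1 core gene) and 0.28. Complex II holds only core members and complex IV only other members. The summed level of other over core subunits was 1.80, 2.16 and 2.201 in males and 1.83, 1.86 and 1.86 in females. Without male replicate 1, edgeR called 2 of 20 core and 23 of 59 other subunits higher, where 3.75% of 8989 tested genes were higher.

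These classes also differed in mRNA length, which was related to the fold change over all genes. The median mRNA was 1198.5 bases long in core subunits and 652 bases in the others, against 2760.0 bases over all tested genes. Among genes that were neither members nor cytosolic ribosomal proteins, the median log2 fold change was 0.20 up to 600 bases, 0.14 up to 1000, 0.07 up to 2000, -0.03 up to 4000 and -0.10 above. Members had medians of 0.28 (29 genes), 0.18 (24 genes), 0.23 (20 genes) and 0.02 (5 genes) in the first 4 classes and none in the last. Members up to 600 bases thus had a median 0.28 beside 0.20 in other genes of that length. All tested genes of that length, members and ribosomal protein genes included, had 0.26. With lengths by the longest transcript, members up to 600 bases (18 genes) had 0.27, below the 0.32 of all tested genes. Above 600 bases, members had the higher median in every class of those lengths. Pearson's r between log2 length and log2 fold change was -0.27 across 78 members and -0.27 across 8146 tested genes, genes that share the same 6 libraries. The part of mRNA length in the members' fold changes was not tested.

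**Figure D5:**
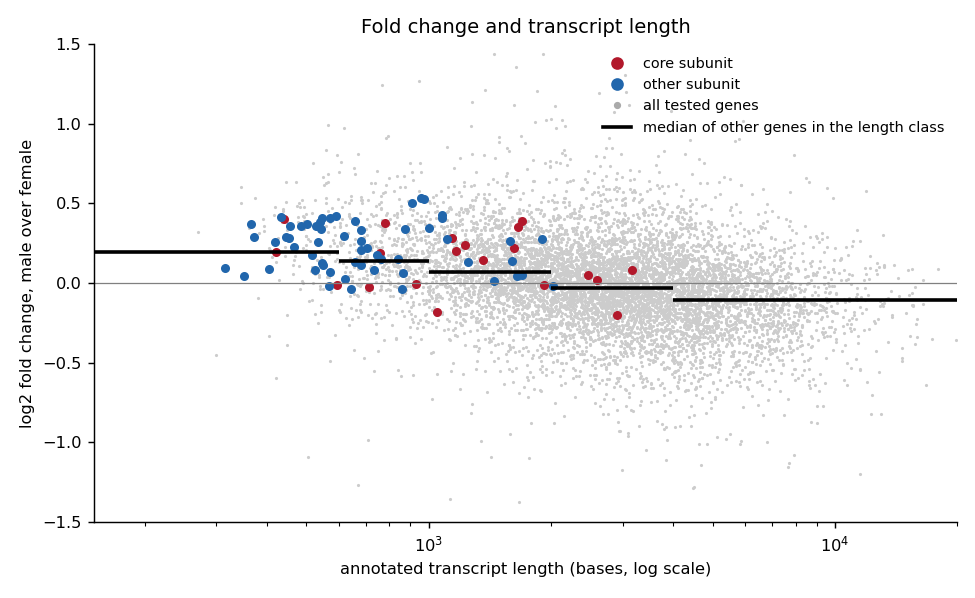
Log2 fold change (male over female, y axis) against mRNA length in bases (log x axis) for the tested subunits (coloured), all tested genes (grey, those beyond the axis not drawn) and, as black lines, the median of other genes in each length class. Members have a median length of 709 bases, and the medians of other genes are 0.20 in the shortest class and -0.10 in the longest.

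The other gene lists of the pathway had unlike medians. Among all tested genes, 49.3% had a fold change above 0, and 0.426% were called higher and 0.154% lower. At an unadjusted p under 0.05 by edgeR, 6.83% of all tested genes were higher. Of 12 mitochondrially encoded subunits 10 were tested, and all 10 had a fold change above 0, with a median of 0.37 on the log2 scale. Only mt-Co1, the catalytic subunit of complex IV, passed the test, with 819, 1379 and 1104 CPM in males and 607, 675 and 782 CPM in females (log2 fold change 0.67 ± 0.15, adjusted p = 0.0396 by edgeR). The nuclear members over the mitochondrially encoded subunits gave a ratio of 0.997, 0.999 and 0.933 in males and 1.10, 1.01 and 1.00 in females. Of 44 tested assembly factors 0 were called and 6 had an unadjusted p under 0.05, all higher in males, with a median of 0.11. Of 22 other nuclear genes of electron transfer and ATP synthesis 0 were called, with a median of -0.02. They include Cyc1, the cytochrome c1 of complex III, at -0.04, and Atpif1, which inhibits ATP hydrolysis by complex V, at 0.39 with an unadjusted p of 0.00938. Of 12 tested regulators of mitochondrial gene expression, such as Tfam, which packages and transcribes mitochondrial DNA, and Yy1, 0 were called, with a median of -0.06.

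Cytosolic ribosomal protein genes, which also make short, abundant mRNAs, stood further from 0 than the members. All 79 tested had a fold change above 0, 56 had an unadjusted p under 0.05 and 0 were called, with a median of 0.38 on the log2 scale. Among all tested genes, 49.3% were above 0 and 6.83% were higher at that unadjusted p. Their sum was 131717, 200125 and 167819 CPM in males and 127396, 136260.0 and 124243 CPM in females, with male replicate 1 inside the female range. The members over these genes gave a ratio of 0.147, 0.132 and 0.137 in males and 0.156, 0.150 and 0.157 in females, so every male library was below every female library. For single genes, 8.03% of those tested had all males below all females, and the ratio has no test. The part of this pattern in the members' values was not tested.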

How the data were processed

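RNA counts of 3 male and 3 female ALDHbr libraries were used, grouped by the titles. The authors deposited raw counts per gene, not normalised, per the file headers and their values. Per the submitters' processing notes, which give no role or order, GRCm38 and GRCh38 were the builds, and featureCounts 2.0.1, HISAT2 2.2.1, DESeq2, UMI-tools and Trim Galore 0.6.7 the tools. No source used here says whether counting used strand or molecular identifiers were collapsed. PCR copies may thus be counted, and reads of the 26 members whose exons overlap another gene on the other strand may be shared. Per the file headers, the pool also held 10 lung samples, not analysed here. Lung epithelial markers summed to 182, 373 and 190 CPM in male replicates 1 to 3 and 176, 149 and 119 CPM in female replicates 1 to 3.

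From these counts, genes were kept by filterByExpr of edgeR 4.0.16 in R 4.3.3 (minimum count 10, minimum total 15), scaled by TMM and tested, male minus female, by the quasi-likelihood F test with Benjamini-Hochberg adjustment over 8460 genes at 0.05. The common coefficient of biological variation was 0.102. The SE is the fold change over the root of F, and summed levels have no test. Coordinates and mRNA lengths (shortest transcript of the best APPRIS rank) are from GENCODE M21, which matched all 84 members and gave 83 a length. The steps were tested on simulated data. Alternatives tried were DESeq2 1.42.0, limma-voom (limma 3.58.1), scaling by library size, RLE or the upper quartile, a stricter filter or none, a replicate block, each library left out, and lengths by the longest transcript, the last chosen after seeing the data.

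Members, lists and the rule for named genes were chosen with earlier results of these data known. The rule took, per complex, the highest level and the highest and lowest fold change, then members with an unadjusted p under 0.05, X-linked members, paralogues and members below the count minimum. Members named beyond it were chosen after their values were seen. Values of some single genes are not reported here.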

Additional observations from a re-analysis of the deposited data

How the results depend on the processing

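No member was called lower under any alternative run. Called higher were 0 under all alternatives run except no filter, with 1 (Atp5j2, adjusted p = 0.0263), and without 1 library, where the count ran from 0 to 25, the 25 being without male replicate 1. The members' median log2 fold change ran from 0.09 (without male replicate 2) to 0.30 (without male replicate 1). Library-size scaling gave 0.12 for the members beside -0.09 for all genes. Among all tested genes, those called higher were 81 with no filter, 56 with the replicate block and 19 to 337 without 1 library. Those called lower were 23 with library-size scaling, 35 with no filter, 22 with the replicate block, 7 by DESeq2, 8 by limma-voom and 4 to 78 without 1 library. With the replicate block 0 members were called higher. Same-numbered libraries deviated together by correlations of 0.03, 0.03 and 0.05, and each correlated best with its own number. All other pairings had correlations from -0.03 to -0.0006. The labels name no pairs and the main fit used none, and whether the numbers mark pairs was not settled. Of 573 comparisons of 41 named members, 536 kept direction and call, 24 passed the threshold (23 of them without male replicate 1) and 13 reversed. Library-size scaling put Cox6a1 at -0.032 and Uqcrc1 at -0.053. Without 1 library, Atp5b ran from -0.070 to 0.044, Atp5g1 from -0.076 to 0.056, Atp5g3 from -0.067 to 0.043, Cox5a from -0.16 to 0.16, Cox6a1 from -0.065 to 0.17, Cox8a from -0.045 to 0.25 and Uqcrc1 from -0.090 to 0.13. The summed level of complex II, male minus female on the log2 scale, was 0.09 with TMM and -0.01 with library-size scaling. Subunit c shares divided by mRNA length, a step that 3′-end tags do not call for, depend on the transcript used. Atp5g1 held 22.5% per kilobase of the shortest and 3.78% of the longest. The cause of these differences was not tested. With 3 libraries a sex and fewer counts in males, small differences in the rarest members, such as Cox6a2, were not detectable at this depth.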
